A study of Canis lupus with 23 samples.

Results

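Skeletal muscle sarcomere and myogenic genes were described in 23 tumors of pet dogs, 1 array per tumor and 1 dog per tumor. The set holds 40 genes chosen by symbol: 35 genes of the mature muscle fiber and 5 myogenic factors (MYOD1, MYOG, MYF5, MYF6 and PAX7). Of these, 37 were measured, 32 fiber genes and all 5 factors, among 15115 genes measured in all; TNNI1, CKM and CASQ2 were not analysed here. The members were read from 98 probesets, 91 of fiber genes and 7 of the factors. The tumors were untreated biopsies of 8 diagnoses: lymphoma (7), melanoma (5), sarcoma (4, made of 2 tumors labelled STS, for soft tissue sarcoma, and 2 labelled Sarcoma), transitional cell carcinoma of the bladder or TCC (3), and 1 each of histiocytic sarcoma, HSA (hemangiosarcoma), nasal tumor and hepatocellular carcinoma or HCC. By the study's methods, enrollment named oral melanoma in any breed, multicentric lymphoma in golden retrievers and bladder TCC in Scottish terriers beside other tumors, and the biopsies were taken by needle core, punch or open surgery, with the TCCs sampled through a cystoscope or under ultrasound. The site, breed, age and sex of the single tumors are not part of the labels, there is no normal tissue, and the 4 diagnoses with a single tumor have no replicate.

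A muscle fiber is filled with sarcomeres, in which thick filaments of myosin pull on thin filaments of actin between Z-discs. Troponin and tropomyosin on the thin filament switch contraction on when calcium leaves the sarcoplasmic reticulum, and slow and fast fibers use different isoforms of myosin and troponin. The program is laid down by PAX7, which marks the satellite cells that repair muscle, and by the myogenic regulatory factors: MYF5 and MYOD1 commit a cell to the lineage, MYOG drives its differentiation, and MYF6 acts late and persists in fibers. Skeletal muscle surrounds many sites from which tumors are biopsied, and some tumors switch on single muscle genes or the whole program. In such bulk samples, fewer cells of a type and less RNA per cell cannot be told apart.

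Values are log2(signal + 16), where the signal is the MAS5 intensity of a probeset and a gene is the mean of its probesets; a signal of 0 reads 4.0 and the median of all gene values was 7.03. A value can be set against the same gene in other tumors, not against another gene. Marker genes were checked against the labels. The mean difference from the 23-tumor median was 4.20 to 4.65 for melanocyte genes in the melanomas (at most 0.24 elsewhere), 4.47 to 5.29 for urothelial genes in the TCCs (at most 0.86) and 8.73 for hepatocyte genes in the HCC (at most 1.12). The lymphocyte genes were at 1.25 to 3.24 in the lymphomas and up to 1.34 elsewhere, in the histiocytic sarcoma. The fibroblast genes were at 1.66 to 2.73 in the sarcomas and up to 2.11 elsewhere. Macrophage genes were at 2.53 in the histiocytic sarcoma and at most 1.66 elsewhere, with 5 of 8 at their highest there. Endothelial genes were at 1.96 in the HSA and at most 0.65 elsewhere. The epithelial genes of the nasal tumor were at 3.85, and the same list reached 5.03 elsewhere. On the log2 scale the 3' over 5' ratio of the array controls, which rises as RNA degrades or is copied from its 3' end, was 4.87 to 9.05 for actin and 5.12 to 9.74 for GAPDH over the 23 arrays.

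The mature fiber genes were high in a single tumor, the histiocytic sarcoma. Over the 32 fiber genes it lay 4.87 above the medians of the 23 tumors on average, while the same mean was 1.25 in the soft tissue sarcoma STS 0 and -0.29 to 0.36 in the other 21 tumors. The 5 myogenic factors gave 0.88 in the histiocytic sarcoma and -0.09 in STS 0, and they reached 0.97 in Lymphoma 3 and 0.91 in STS 1. For the replicated types the fiber mean was -0.05 ± 0.19 in lymphoma (SD, n = 7), 0.13 ± 0.17 in melanoma (n = 5), 0.46 ± 0.53 in sarcoma (n = 4) and -0.11 ± 0.17 in TCC (n = 3). The factors gave 0.37 ± 0.38, 0.12 ± 0.05, 0.13 ± 0.52 and -0.07 ± 0.30 in the same order. The sarcoma mean rests on STS 0, without which it was 0.20.

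**Figure D1:**
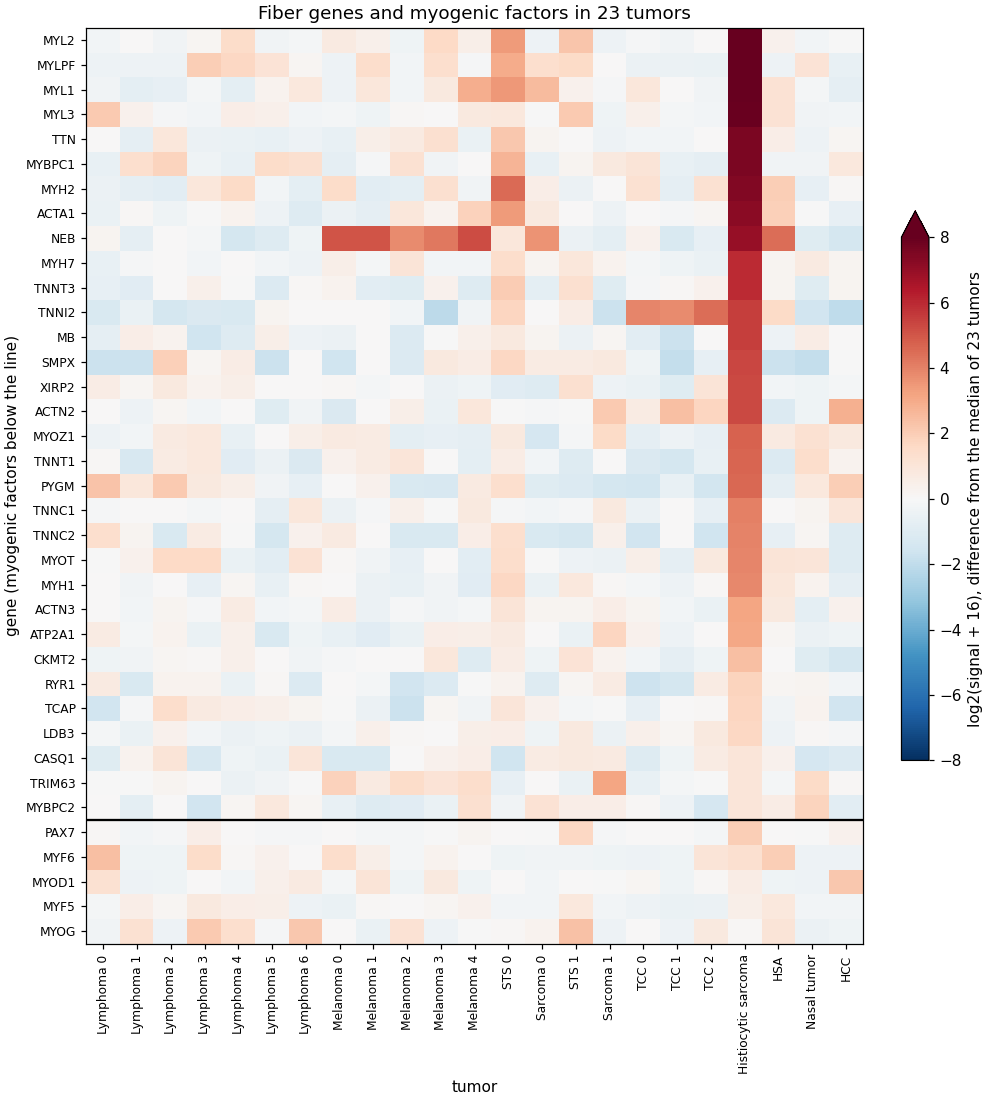
Difference of each measured member (rows, fiber genes above the line and the 5 myogenic factors below it) from its median of the 23 tumors (columns), in log2(signal + 16); colors saturate at 8. The histiocytic sarcoma column is red over most fiber genes, NEB is red in the 5 melanomas, Sarcoma 0 and the HSA, and TNNI2 in the 3 TCCs.

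**Figure D2:**
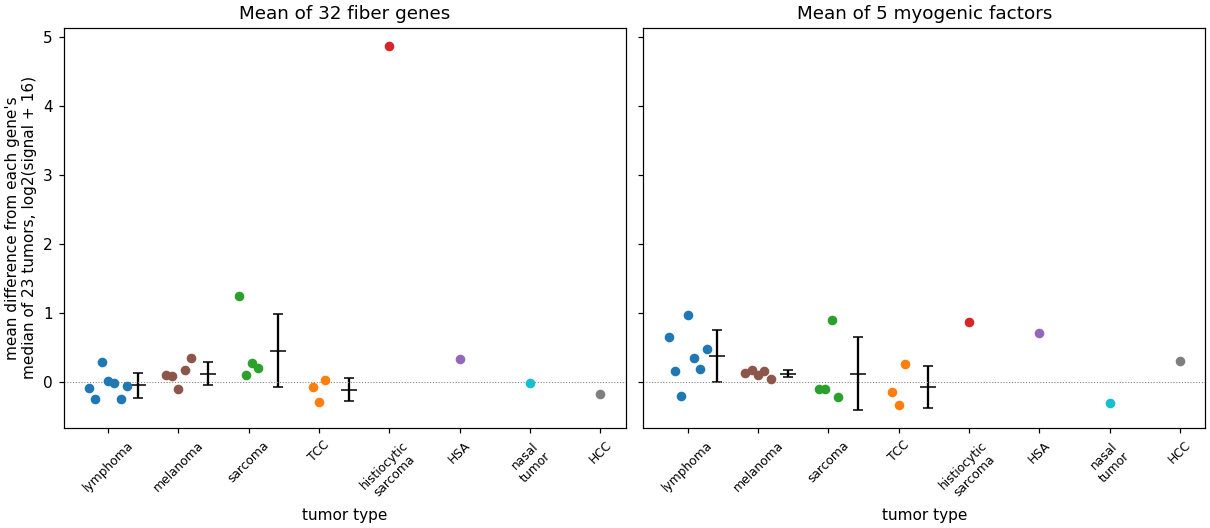
Mean difference from the 23-tumor median over 32 fiber genes (left) and 5 myogenic factors (right), 1 point per tumor; bars beside types with 3 or more tumors are the mean and SD. The histiocytic sarcoma sits at 4.87 for the fiber genes and at 0.88 for the factors, and STS 0 at 1.25 for the fiber genes.

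In the histiocytic sarcoma, 25 of the 37 members lay at least 3 above their median (an 8-fold difference in signal + 16), against 0.84% of all genes in that tumor, and all 25 were fiber genes. The 32 fiber genes differed from their medians by 0.95 to 9.89 with a median of 4.98, and the median over all genes was 0.00. For 29 of the 32 the histiocytic sarcoma was the highest of the 23 tumors, which held for 3.74% of all genes; the exceptions were CASQ1, MYBPC2 and TRIM63. Of the 32, 15 stood at least 3 above every other tumor, as did 0.152% of all genes. At the level of probesets, 68 of the 91 for fiber genes passed the same limit of 3, against 0.911% of all probesets, and 0 of the 7 for the factors. With a single tumor of this type these are descriptions with no test. Its 3' over 5' ratios, 5.41 for actin and 6.68 for GAPDH, were within the range of the other arrays.

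The thick filament gave the largest differences, with a mean of 6.71 over 10 genes. MYH7, the slow and cardiac myosin heavy chain, was at 11.33 in the histiocytic sarcoma. Elsewhere it was 4.76 to 5.39 in the 7 lymphomas with a median of 5.12, and 5.81, 5.18, 6.35, 5.11 and 5.1 in the 5 melanomas. The level was 5.18, 4.99 and 4.79 in the 3 TCCs, and 6.77 in STS 0, 6.27 in STS 1, 5.55 in Sarcoma 0 and 5.65 in Sarcoma 1. The single tumors gave 5.53 in the HSA, 6.06 in the nasal tumor and 5.56 in the HCC. No other tumor came within 4 units of the histiocytic sarcoma. MYH2, the heavy chain of fast type IIA fibers, was at 12.41 there. It read 4.17 to 6.54 in the 7 lymphomas with a median of 4.53, and 6.49, 4.16, 4.22, 6.33 and 4.73 in the 5 melanomas. Sarcoma levels were 9.54 in STS 0, 4.57 in STS 1, 5.55 in Sarcoma 0 and 5.03 in Sarcoma 1. The gene was at 6.24, 4.31 and 6.25 in the 3 TCCs, and 7.0 in the HSA, 4.4 in the nasal tumor and 5.13 in the HCC. STS 0 was second and the HSA next. MYH1, the heavy chain of type IIX fibers, was at 8.91 in the histiocytic sarcoma. Its levels were 4.43 to 5.22 in the 7 lymphomas with a median of 5.08, and 5.06, 4.6, 4.48, 4.79 and 4.15 in the 5 melanomas. It stood at 6.74 in STS 0, 5.88 in STS 1, 4.54 in Sarcoma 0 and 5.13 in Sarcoma 1, and at 4.91, 4.66 and 5.16 in the 3 TCCs. Among single tumors it was 5.97 in the HSA, 5.33 in the nasal tumor and 4.34 in the HCC. Its order was the same, with the histiocytic sarcoma first and STS 0 second.

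All 4 myosin light chains were highest in the histiocytic sarcoma, and the next tumor was STS 0 for MYLPF, MYL2 and MYL1 and STS 1 for MYL3. MYLPF, the fast regulatory light chain, was at 12.77 in the histiocytic sarcoma. The level was 4.29 to 6.65 in the 7 lymphomas with a median of 4.87, and 4.32, 6.09, 4.46, 6.07 and 4.58 in the 5 melanomas. In the 3 TCCs it was 4.26, 4.25 and 4.18, and in the sarcomas 7.69 in STS 0, 6.25 in STS 1, 6.06 in Sarcoma 0 and 4.7 in Sarcoma 1. It read 4.28 in the HSA, 5.77 in the nasal tumor and 4.08 in the HCC. Most of these values were close to the value of 4.0 that a signal of 0 gives. MYL2, the slow and cardiac regulatory chain, had the largest difference of any member, 9.89, with 14.46 in the histiocytic sarcoma, 8.0 in STS 0 and 4.19 to 6.78 in the other 21. MYL1, the fast essential chain, was at 13.1 and 8.54 in those 2 tumors and at 4.32 to 8.03 elsewhere. MYL3, the slow essential chain, was at 12.42 in the histiocytic sarcoma and next highest in STS 1, at 6.66, with STS 0 at 5.39. MYBPC1, the slow myosin-binding protein C, was at 12.39, beside 7.57 in STS 0 and 4.12 to 6.66 elsewhere. Its fast counterpart MYBPC2 differed by 0.95 only, at 7.35, and was higher in the nasal tumor (8.20).

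TTN, the giant protein that spans from Z-disc to the middle of the sarcomere, was at 13.07 in the histiocytic sarcoma. The rest were at 4.8 to 6.43 in the 7 lymphomas with a median of 5.02, and 4.95, 5.97, 6.23, 6.79 and 5.01 in the 5 melanomas. Among the sarcomas it was 7.68 in STS 0, 5.52 in STS 1, 5.74 in Sarcoma 0 and 5.11 in Sarcoma 1, and the 3 TCCs gave 5.33, 5.33 and 5.54. It was 6.03 in the HSA, 5.11 in the nasal tumor and 5.68 in the HCC. Each of its 20 probesets was higher than its median there, by 5.88 to 9.55, and in STS 0 they differed by 0.43 to 3.85. The histiocytic sarcoma passed the limit of 3 with all 20 of them.

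Thin filament genes differed by 5.48 on average over 7 genes in the histiocytic sarcoma. ACTA1, the actin of skeletal muscle, was at 13.1. Elsewhere it was 4.86 to 6.21 in the 7 lymphomas with a median of 5.56, and 5.45, 5.17, 6.83, 6.16 and 7.73 in the 5 melanomas. The level was 5.9, 5.82 and 6.07 in the 3 TCCs, and 9.31 in STS 0, 5.9 in STS 1, 6.71 in Sarcoma 0 and 5.51 in Sarcoma 1. The single tumors gave 7.82 in the HSA, 5.87 in the nasal tumor and 5.24 in the HCC. STS 0 was second, with the HSA and Melanoma 4 next. TNNC1, the calcium-binding troponin of slow and cardiac fibers, was at 10.25 in the histiocytic sarcoma. It read 5.52 to 7.14 in the 7 lymphomas with a median of 6.21, and 5.76, 6.12, 6.62, 6.15 and 6.96 in the 5 melanomas. Sarcoma levels were 6.09 in STS 0, 6.13 in STS 1, 5.97 in Sarcoma 0 and 7.01 in Sarcoma 1. The gene was at 5.75, 6.22 and 5.57 in the 3 TCCs, and 6.23 in the HSA, 6.45 in the nasal tumor and 7.2 in the HCC. The other tumors covered less than 2 units, and STS 0 was not above its median. TNNC2, the fast counterpart, was at 9.72 in the histiocytic sarcoma. Its levels were 4.33 to 7.1 in the 7 lymphomas with a median of 5.99, and 6.47, 5.75, 4.51, 4.55 and 6.28 in the 5 melanomas. It stood at 7.12 in STS 0, 4.36 in STS 1, 4.56 in Sarcoma 0 and 6.13 in Sarcoma 1, and at 4.24, 5.79 and 4.17 in the 3 TCCs. Among single tumors it was 5.09 in the HSA, 5.9 in the nasal tumor and 4.74 in the HCC. STS 0 and Lymphoma 0 were next and close to each other.

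TNNT1, the slow troponin that anchors the complex to tropomyosin, was at 10.15 in the histiocytic sarcoma. Elsewhere it was 4.2 to 6.33 in the 7 lymphomas with a median of 5.05, and 5.83, 6.18, 6.47, 5.53 and 4.74 in the 5 melanomas. In the 3 TCCs it was 4.36, 4.12 and 4.9, and in the sarcomas 6.13 in STS 0, 4.48 in STS 1, 5.31 in Sarcoma 0 and 5.51 in Sarcoma 1. It read 4.43 in the HSA, 6.93 in the nasal tumor and 5.8 in the HCC. The nasal tumor was second and STS 0 was within the spread of the rest. TNNT3, the fast form, was at 11.25. It read 4.22 to 5.7 in the 7 lymphomas with a median of 5.27, and 5.57, 4.47, 4.33, 5.63 and 4.25 in the 5 melanomas. Among the sarcomas it was 7.31 in STS 0, 6.55 in STS 1, 4.5 in Sarcoma 0 and 4.3 in Sarcoma 1, and the 3 TCCs gave 5.19, 5.4 and 5.66. It was 5.52 in the HSA, 4.33 in the nasal tumor and 5.5 in the HCC. STS 0 was second and STS 1 next. The inhibitory fast troponin TNNI2 and the thin filament ruler NEB were also highest in the histiocytic sarcoma, at 12.77 and 13.11, and are given with the tumor types in which they were called.

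Z-disc genes differed by 3.88 on average over 8 genes. ACTN2, the alpha-actinin that cross-links thin filaments in all fibers, was at 10.66 in the histiocytic sarcoma. It was otherwise at 4.45 to 5.56 in the 7 lymphomas with a median of 5.17, and 4.25, 5.43, 5.89, 4.86 and 6.29 in the 5 melanomas. The level was 6.08, 7.84 and 7.13 in the 3 TCCs, and 5.38 in STS 0, 5.37 in STS 1, 5.31 in Sarcoma 0 and 7.48 in Sarcoma 1. The single tumors gave 4.31 in the HSA, 5.09 in the nasal tumor and 8.23 in the HCC. The HCC, TCC 1, Sarcoma 1 and TCC 2 were the other tumors above 7.0, and STS 0 was within 0.03 of its median. The 2 ACTN2 probesets disagreed in STS 0, with differences of -1.71 and 1.0. In the histiocytic sarcoma they differed by 3.56 and 6.29, and the first of them was highest in the HCC. XIRP2, SMPX, MYOZ1, MYOT and ACTN3 differed by 5.28, 5.38, 4.7, 3.89 and 3.16. TCAP and LDB3 differed by 1.72 and 1.66 and did not reach 3, although both were highest in the histiocytic sarcoma.

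The oxygen store MB, myoglobin, was at 11.37 in the histiocytic sarcoma. The other levels were 4.25 to 6.35 in the 7 lymphomas with a median of 5.41, and 5.36, 5.84, 4.72, 5.83 and 6.24 in the 5 melanomas. Sarcoma levels were 6.65 in STS 0, 5.38 in STS 1, 6.04 in Sarcoma 0 and 5.99 in Sarcoma 1. The gene was at 5.02, 4.13 and 5.9 in the 3 TCCs, and 5.46 in the HSA, 6.46 in the nasal tumor and 5.9 in the HCC. The next tumors, STS 0, the nasal tumor and Lymphoma 1, stood more than 4 units lower. PYGM, the muscle glycogen phosphorylase, was at 10.3 there and CKMT2, a mitochondrial creatine kinase, at 9.1, a difference of 2.41. ATP2A1, the calcium pump of fast fibers, was at 9.97. It read 5.66 to 7.56 in the 7 lymphomas with a median of 6.75, and 6.31, 5.98, 6.36, 7.44 and 7.32 in the 5 melanomas. It stood at 7.62 in STS 0, 6.35 in STS 1, 6.88 in Sarcoma 0 and 8.57 in Sarcoma 1, and at 7.21, 6.5 and 6.88 in the 3 TCCs. Among single tumors it was 7.03 in the HSA, 6.41 in the nasal tumor and 6.51 in the HCC. Sarcoma 1 was second. Among the calcium handling genes it was the 1 that passed 3, at 3.09, while the release channel RYR1 differed by 1.77 and the fast calcium store CASQ1 by 0.99. The atrophy-related ubiquitin ligase TRIM63 differed by 0.95.

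Genes of slow and of fast fibers were both high in the histiocytic sarcoma. The 5 slow genes differed by 4.04 to 9.89 in the histiocytic sarcoma (median 5.99) and the 12 fast genes by 0.95 to 8.07 (median 4.34). In STS 0 the slow genes differed by -0.12 to 3.44 (median 0.85) and the fast genes by -1.60 to 4.51 (median 1.53). The slow list leaves out MYBPC1, which differed by 7.53 and 2.71 in the same 2 tumors, while the fast list holds MYBPC2.

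**Figure D3:**
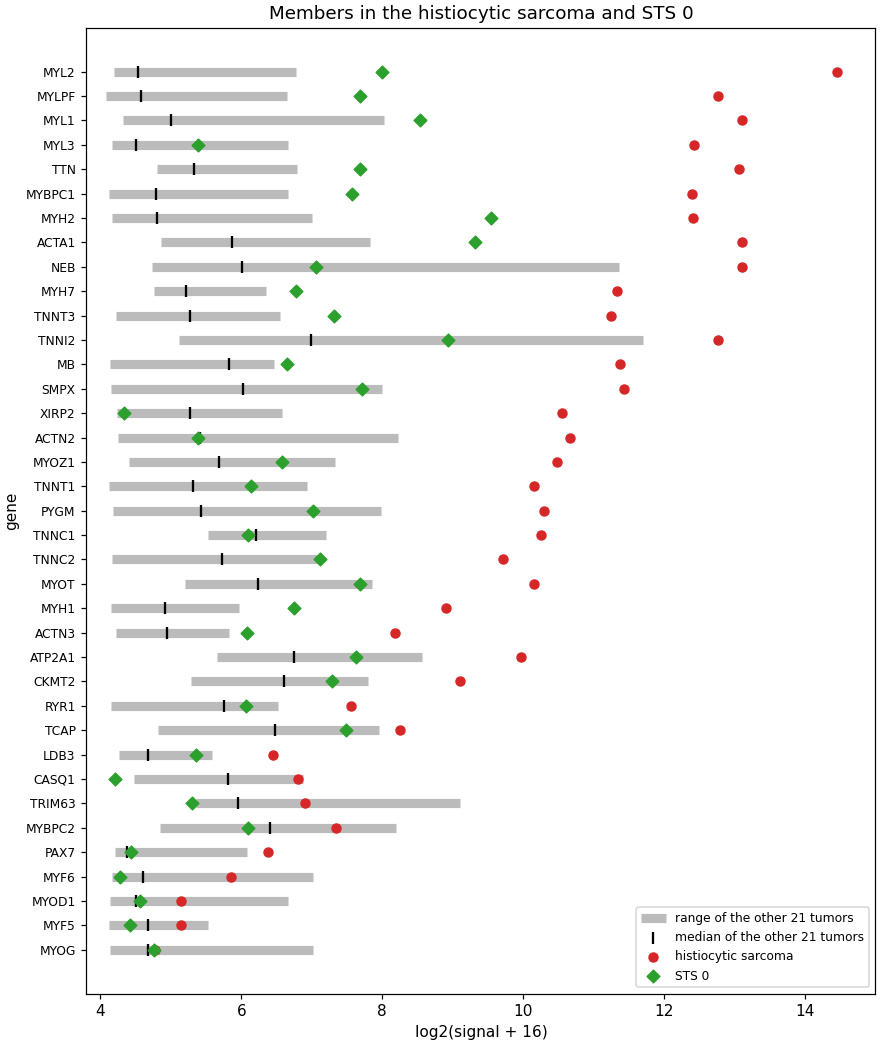
Level of each measured member in log2(signal + 16) in the histiocytic sarcoma (circles) and STS 0 (diamonds), beside the range (grey bars) and median (ticks) of the other 21 tumors. MYL2 reads 14.46 in the histiocytic sarcoma and 8.0 in STS 0, with at most 6.78 elsewhere, while MYOG reads 4.78 and 4.76 in them.

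The soft tissue sarcoma STS 0 was second. It had 4 members at least 3 above their medians, MYH2, MYL2, MYL1 and ACTA1 (4.51, 3.44, 3.44 and 3.41), against 1.09% of all genes, with MYLPF just under at 2.99. The 3 ACTA1 probesets disagreed there, with differences of 2.40, 6.08 and 1.67, and MYH2 and MYL2 have 1 probeset each. With the histiocytic sarcoma set aside, STS 0 was the highest of the 22 tumors for 13 of the 32 fiber genes, as it was for 4.70% of all genes. The median fiber difference in it was 1.0, beside -0.03 over all genes. Its 3' over 5' ratios were 6.47 for actin and 5.31 for GAPDH. The other 21 tumors had at most 1 member at least 3 above the median, and 10 of them had none. It was NEB in Melanoma 0 to Melanoma 4, where 0.887%, 0.529%, 0.463%, 0.893% and 0.926% of all genes passed that limit, in the HSA (0.986%) and in Sarcoma 0 (0.82%). It was TNNI2 in TCC 0, TCC 1 and TCC 2 (1.46%, 1.42% and 1.38%) and TRIM63 in Sarcoma 1 (1.07%).

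The 5 myogenic factors lay less than 2 above their medians in the histiocytic sarcoma and in STS 0, with PAX7 nearest to that limit at 1.96 in the histiocytic sarcoma. None of their 115 values lay 3 or more above the median and 5 lay 2 or more above it, all 5 in other tumors. Their medians were 4.42 to 4.68, so that they were close to a signal of 0 in most tumors. The low-signal filter kept genes above 7.03, the median of all gene values, in at least 3 tumors. It passed none of the 5 factors, 15 of the 32 fiber genes and 9972 of all 15115 genes. A gene high in fewer than 3 tumors fails it, as MYL2 did (14.46 in the histiocytic sarcoma, 8.0 in STS 0, at most 6.78 elsewhere).

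MYOD1 was at 5.14 in the histiocytic sarcoma. Elsewhere it was 4.15 to 5.74 in the 7 lymphomas with a median of 4.56, and 4.36, 5.55, 4.19, 5.31 and 4.19 in the 5 melanomas. In the 3 TCCs it was 4.66, 4.2 and 4.61, and in the sarcomas 4.56 in STS 0, 4.53 in STS 1, 4.34 in Sarcoma 0 and 4.51 in Sarcoma 1. It read 4.18 in the HSA, 4.14 in the nasal tumor and 6.66 in the HCC. The HCC was the highest. MYOG was at 4.78 in the histiocytic sarcoma. Its levels were 4.3 to 6.83 in the 7 lymphomas with a median of 5.91, and 4.68, 4.14, 5.86, 4.3 and 4.65 in the 5 melanomas. Among the sarcomas it was 4.76 in STS 0, 7.01 in STS 1, 4.96 in Sarcoma 0 and 4.25 in Sarcoma 1, and the 3 TCCs gave 4.68, 4.25 and 5.49. It was 5.73 in the HSA, 4.24 in the nasal tumor and 4.31 in the HCC. STS 1, Lymphoma 6 and Lymphoma 3 (6.76) were the high tumors, while their fiber means were 0.28, -0.05 and 0.02. MYF5 was at 5.14 in the histiocytic sarcoma. It read 4.29 to 5.46 in the 7 lymphomas with a median of 5.11, and 4.12, 4.79, 4.67, 4.83 and 5.01 in the 5 melanomas. The level was 4.25, 4.16 and 4.18 in the 3 TCCs, and 4.42 in STS 0, 5.5 in STS 1, 4.44 in Sarcoma 0 and 4.48 in Sarcoma 1. The single tumors gave 5.52 in the HSA, 4.48 in the nasal tumor and 4.46 in the HCC. The 23 values ran from 4.12 to 5.52. Its 3 probesets disagreed in the histiocytic sarcoma, with differences of 0.24, 2.09 and -0.41.

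MYF6 was at 5.85 in the histiocytic sarcoma. The level was 4.26 to 7.02 in the 7 lymphomas with a median of 4.72, and 5.99, 5.09, 4.43, 4.88 and 4.65 in the 5 melanomas. Sarcoma levels were 4.27 in STS 0, 4.32 in STS 1, 4.31 in Sarcoma 0 and 4.27 in Sarcoma 1. The gene was at 4.17, 4.23 and 5.66 in the 3 TCCs, and 6.58 in the HSA, 4.19 in the nasal tumor and 4.22 in the HCC. Lymphoma 0 and the HSA were above the histiocytic sarcoma. PAX7 was at 6.38 in the histiocytic sarcoma, a difference of 1.96 and the highest of the 23. Elsewhere it was 4.21 to 4.93 in the 7 lymphomas with a median of 4.32, and 4.42, 4.24, 4.27, 4.37 and 4.62 in the 5 melanomas. It stood at 4.43 in STS 0, 6.08 in STS 1, 4.37 in Sarcoma 0 and 4.32 in Sarcoma 1, and at 4.45, 4.43 and 4.27 in the 3 TCCs. Among single tumors it was 4.47 in the HSA, 4.36 in the nasal tumor and 4.76 in the HCC. STS 1 was next and the rest were below 5.0. PAX7 was the 1 factor with its highest value in the tumor that led the fiber genes.

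Among the 4 replicated types the fiber genes were tested gene by gene with limma, each type against the unweighted mean of the other 3, with p-values adjusted over 15115 genes. Calls needed both an adjusted p under 0.05 and a log2 difference of 1 or more in size. The 4 comparisons share the same 19 tumors. In melanoma 1 member was called higher (NEB; 1.66% of all genes were called) and 1 lower (TNNI2; 1.07%). In TCC 2 were higher (TNNI2 and ACTN2; 4.71%) and 1 lower (NEB; 2.62%). In lymphoma 1 was higher (PYGM; 4.82%) and 2 lower (NEB and TNNI2; 7.91%), and in sarcoma 0 were higher (2.65%) and 0 lower (0.946%). The remaining 33 measured members were called in no comparison. The F test over the 4 types passed 3 members, NEB (adjusted p = 7.40e-06), TNNI2 (2.35e-05) and ACTN2 (0.0487), and 22.2% of all genes. None of the 5 myogenic factors was called in any of the 4 comparisons by limma, and none had an unadjusted p under 0.05 in any of them.

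NEB encodes nebulin, which runs along the thin filament of skeletal muscle. It read 4.73 to 6.35 in the 7 lymphomas with a median of 5.78, and 11.16, 11.16, 9.9, 10.38 and 11.36 in the 5 melanomas. In the 3 TCCs it was 6.49, 4.93 and 5.5, and in the sarcomas 7.06 in STS 0, 5.65 in STS 1, 9.77 in Sarcoma 0 and 5.37 in Sarcoma 1. It read 10.64 in the HSA, 5.21 in the nasal tumor and 4.77 in the HCC. The 5 melanomas lay above every lymphoma, every TCC and every sarcoma, with Sarcoma 0 the nearest. The mean in melanoma was 10.79 ± 0.63 (SD, n = 5) against 6.08 for the mean of the other 3 types, a log2 difference of 4.71 (SE 0.52, limma adjusted p = 1.58e-05). The HSA, at 10.64, lay within the range of the melanomas. Of the 8 NEB probesets, 6 were higher in melanoma by 5.56 to 5.96 and the other pair by 2.04 and 1.60.

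NEB was the 1 fiber gene called higher in the melanomas. The fiber mean in them was -0.10 to 0.36, ACTA1 was 5.17 to 7.73, TTN 4.95 to 6.79 and MB 4.72 to 6.24, and their median difference over the 32 fiber genes in the comparison was -0.12, beside -0.05 for all genes. The lower calls for NEB in lymphoma (a log2 difference of -2.15, SE 0.47, limma adjusted p = 0.00234) and in TCC (-2.16, SE 0.61, 0.0324) compare a level of 5.65 and 5.64 with a mean that includes the melanomas. The TCC call was lost when any 1 of the 3 TCCs was left out (adjusted p = 0.0501, 0.22 and 0.137).

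TNNI2 encodes the fast inhibitory troponin. It read 5.81 to 7.44 in the 7 lymphomas with a median of 6.05, and 7.21, 7.23, 6.99, 5.12 and 6.9 in the 5 melanomas. Among the sarcomas it was 8.94 in STS 0, 7.82 in STS 1, 7.22 in Sarcoma 0 and 5.52 in Sarcoma 1, and the 3 TCCs gave 11.13, 11.02 and 11.7. It was 8.77 in the HSA, 5.66 in the nasal tumor and 5.15 in the HCC. The 3 TCCs lay above every other tumor but the histiocytic sarcoma. The mean in TCC was 11.28 ± 0.37 (SD, n = 3) against 6.84, a log2 difference of 4.44 (SE 0.53, limma adjusted p = 8.53e-06). Both of its probesets were higher in TCC, by 5.39 and 3.50. Its fast troponin partners were not called, with TNNT3 at 5.19, 5.40 and 5.66 and TNNC2 at 4.24, 5.79 and 4.17 in the same 3 tumors. TNNI2 was called lower in lymphoma (-1.99, SE 0.40, limma adjusted p = 0.00131) and in melanoma (-1.68, SE 0.44, 0.0399) against means that include the TCCs. The melanoma call was lost when any 1 of 11 tumors was left out, with a log2 difference of -1.29 and an adjusted p of 0.144 without Melanoma 3. It held without Lymphoma 0, 2, 3, 4 or 5, STS 0, Sarcoma 0 or Sarcoma 1.

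ACTN2 had a mean of 7.02 ± 0.88 in TCC (SD, n = 3) against 5.46, a log2 difference of 1.55 (SE 0.47, limma adjusted p = 0.0444). Its probesets disagreed, with differences of 2.74 and 0.37. The call was lost when any 1 of 14 tumors was left out, with adjusted p-values of 0.0501 to 0.327 and the highest without TCC 1. It held without TCC 0, Melanoma 2, Melanoma 4, Lymphoma 2 or Sarcoma 1. PYGM, the phosphorylase that frees glucose from muscle glycogen, read 5.0 to 7.98 in the 7 lymphomas with a median of 6.44, and 5.68, 6.01, 4.45, 4.41 and 6.37 in the 5 melanomas. The other tumors gave 7.01 in STS 0, 4.6 in STS 1, 4.73 in Sarcoma 0 and 4.3 in Sarcoma 1, 4.24, 5.07 and 4.18 in the 3 TCCs, and 4.96 in the HSA, 6.52 in the nasal tumor and 7.63 in the HCC. Lymphoma was higher by 1.46 (mean 6.48 against 5.01, SE 0.46, limma adjusted p = 0.0268), with overlap between the types. The call was lost without Lymphoma 0 (adjusted p = 0.0721), Lymphoma 2 (0.0686) or TCC 2 (0.0509).

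TRIM63, also known as MuRF1, tags sarcomeric proteins for breakdown in atrophying muscle. It was at 5.48 to 6.14 in the 7 lymphomas with a median of 5.9, and 7.78, 6.65, 7.4, 7.05 and 7.34 in the 5 melanomas. The level was 5.36, 5.81 and 5.9 in the 3 TCCs, and 5.3 in STS 0, 5.42 in STS 1, 5.95 in Sarcoma 0 and 9.11 in Sarcoma 1. The single tumors gave 5.77 in the HSA, 7.48 in the nasal tumor and 6.07 in the HCC. Sarcoma 1 was the highest of the 23, and the 5 melanomas lay above every lymphoma and every TCC. Melanoma was at 7.24 ± 0.42 (SD, n = 5) against 6.0, a log2 difference of 1.25 (SE 0.44) that was not called (limma adjusted p = 0.137). Without Sarcoma 1 it was 1.54, with an adjusted p of 0.00136. Its 4 probesets were higher in melanoma by 0.81 to 1.75, and each was highest in Sarcoma 1. FBXO32, the other well-known atrophy ligase, was lower in lymphoma (-2.07, SE 0.37, limma adjusted p = 0.000391) and was not called in the other types.

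**Figure D4:**
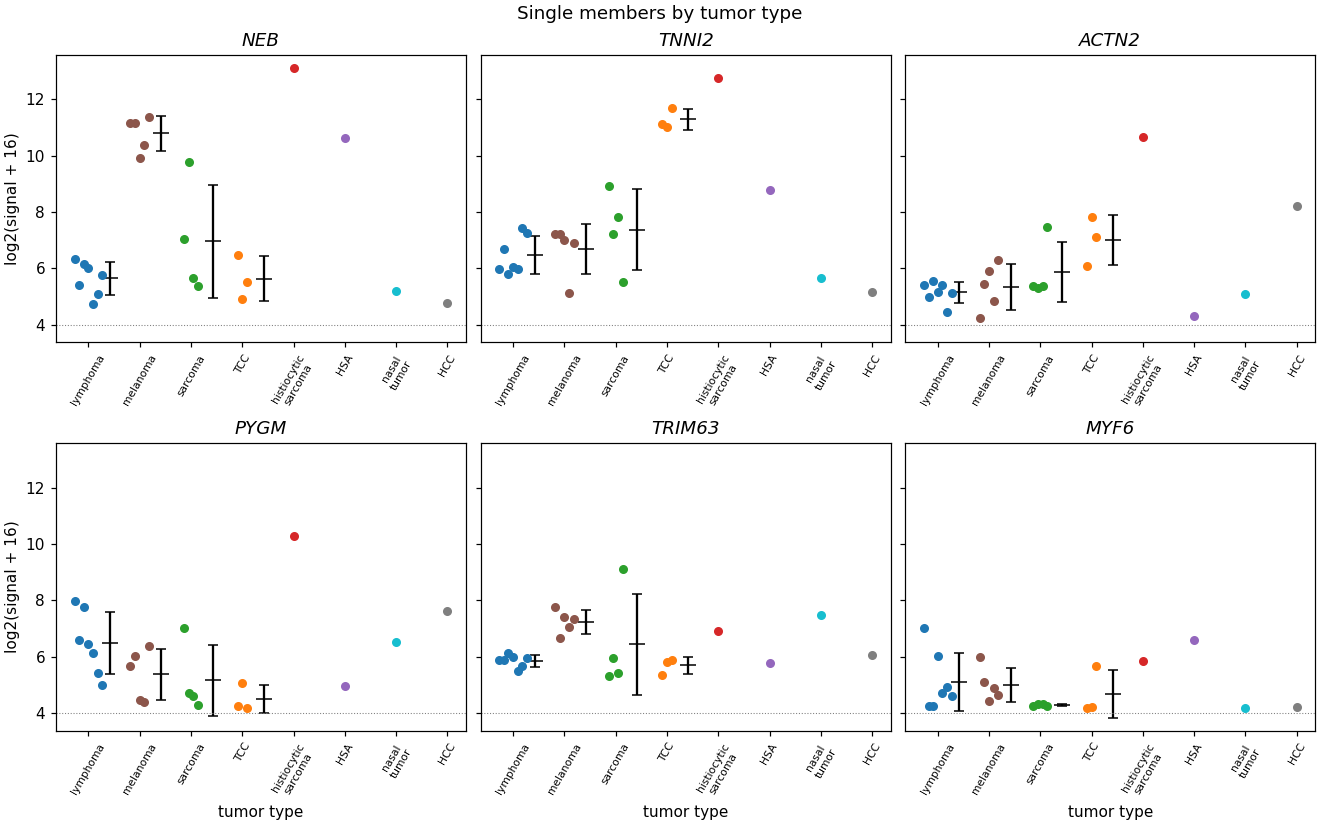
Level in log2(signal + 16) of the 4 called members, TRIM63 and the myogenic factor MYF6 by tumor type, 1 point per tumor; bars are the mean and SD of types with 3 or more tumors and the dotted line at 4 is a signal of 0. NEB is near 10.79 in the melanomas, TNNI2 near 11.28 in the TCCs, and TRIM63 is highest in Sarcoma 1 at 9.11.

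In sarcoma, 28 of the 32 fiber genes had a positive log2 difference, as did 7728 of all 15115 genes. The fiber genes had a median of 0.54, beside 0.01 for all genes, and none was called by limma. Unadjusted limma p-values were under 0.05 for 6 of them (MYH7, MYLPF, SMPX, MYH1, ACTN3 and MYL1), all positive. A similar share of all genes, 2673 of 15115, was under that limit. The thick filament genes gave a median of 0.85 over 10 genes. Without STS 0 the median over the 32 was 0.25, with 21 positive. In TCC the median was -0.46 with 6 positive, against -0.10 for all genes, and in lymphoma and melanoma it was -0.06 and -0.12.

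Other muscle genes, from lists that hold no member, were high in the histiocytic sarcoma too. In the histiocytic sarcoma 14 of 37 other structural and calcium genes, 3 of 26 metabolic and turnover genes and 6 of 28 genes of developing or regenerating muscle lay at least 3 above their medians, beside the 0.84% of all genes given above, as did 0 of 6 head muscle genes and 0 of 10 cardiac genes. The structural genes were led by CSRP3 (10.61, a difference of 5.74), MYOZ2 (9.74) and LMOD3 (10.44), with the intermediate filament DES at 9.86 and the caveolin CAV3 at 9.25. DES was also at 8.84 in the HSA. The 37 structural and calcium genes differed by -1.56 to 5.74 in the histiocytic sarcoma. STAC3 (-1.56), ANKRD2 (-0.90) and XIRP1 (-0.69) were among those under their medians. The metabolic genes were KLHL41 (11.03), COX6A2 (9.62) and PGAM2 (8.56). Of the 23 genes among 15115 that stood at least 3 above every other tumor in the histiocytic sarcoma, 15 were members, 7 were on the other muscle lists (MYH3, KLHL41, LMOD3, CSRP3, ACTC1, LMOD2 and TRDN) and 1, the chemokine CCL13, was on no list. Members and lists were chosen with earlier results of these data known, so this split is a description and not separate support.

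The gene furthest above every other tumor was MYH3, the embryonic myosin heavy chain that developing and regenerating fibers use. It was at 13.69 in the histiocytic sarcoma and at 4.24 to 6.99 in the other 22, and both of its probesets were high (12.82 and 14.56). The other fetal isoforms and receptor subunits that passed 3 there were ACTC1 at 9.73, TNNT2 at 9.66, MYL4 at 10.02, and the acetylcholine receptor subunits CHRNG at 8.14 and CHRNA1 at 8.75. CHRNA1 was nearly as high in Melanoma 3, at 8.66, CHRNG was at 7.67 in Lymphoma 0 and MYL4 at 8.51 in Lymphoma 5. Genes of the developing and regenerating list that did not pass 3 differed by -1.45 to 1.99 there. Among them, the receptor subunits CHRND and CHRNE differed by 0.0 and -0.88. The jaw muscle myosin MYH16 was at 4.67, under its median of 4.74, and the 10 cardiac genes differed by -1.44 to 2.86. The highest of those were TNNI3 at 7.9, a difference of 2.86, and TBX20 at 8.51, a difference of 1.61, and the other 8 differed by 0.34 or less.

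In STS 0, 2 of the 28 genes of developing or regenerating muscle lay at least 3 above their medians, TNNT2 and TWIST1. That limit was passed by 1.09% of all genes in STS 0, and the 28 differed there by -1.91 to 4.97. STS 1 also had 2 of the 28 past that limit, IGF2 (12.54) and SIX4 (9.27), against 1.14% of all genes. The mean difference over the 28 was 1.17 in the histiocytic sarcoma, 1.02 in STS 1, 0.16 in STS 0 and at most 0.61 elsewhere. Of the 6 that passed 3 in the histiocytic sarcoma, MYH3 (4.93), ACTC1 (4.28), MYL4 (5.8) and CHRNA1 (4.21) were under their medians in STS 0. The other 2, CHRNG at 6.99 and TNNT2 at 10.63, were above theirs, by 2.11 and 4.97, and MUSK, a kinase of the neuromuscular junction, was above by 2.12. TNNT2, a troponin of the heart and of fetal skeletal muscle, was higher in STS 0 than in the histiocytic sarcoma and the highest of the 23. TNNI3, the inhibitory troponin of the heart and the 1 cardiac gene past 3, was also highest in STS 0, at 10.81 beside a median of 5.04. All 3 TNNT2 probesets were high in STS 0 (10.61, 10.66 and 10.62), and TNNI3 has 1 probeset. The other 9 cardiac genes measured differed by -1.5 to 0.00 there. TWIST1, a mesenchymal factor that holds back myogenesis, was at 8.05, also the highest of the 23.

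**Figure D5:**
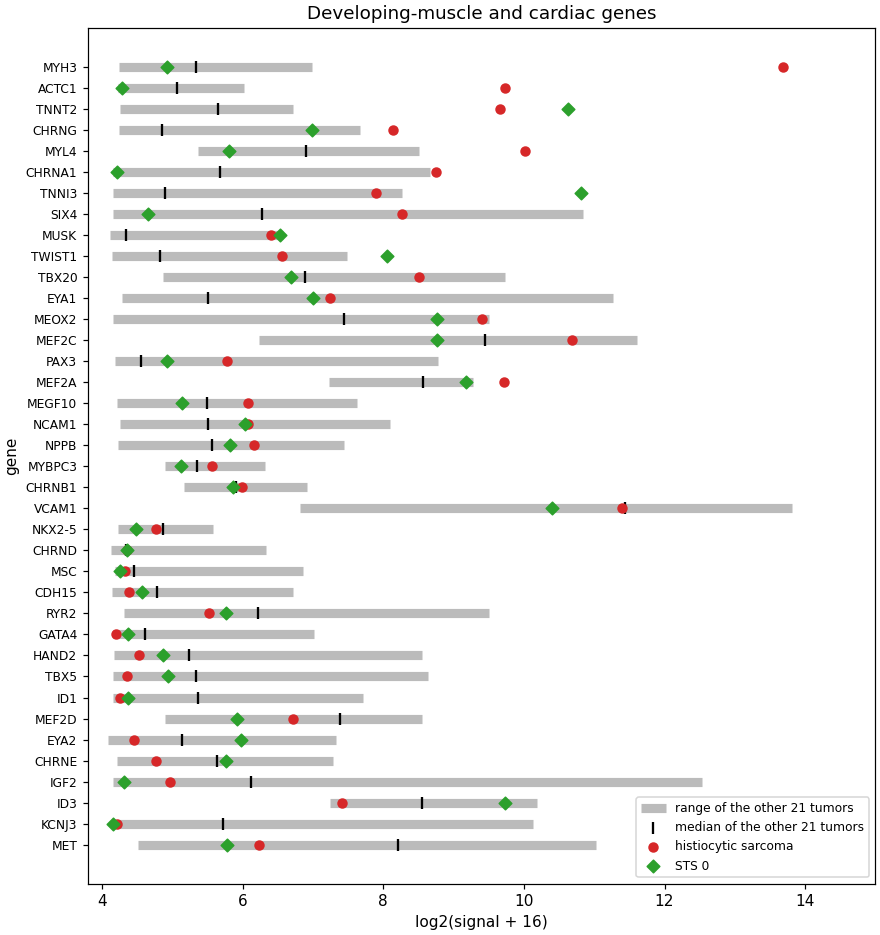
Level in log2(signal + 16) of genes of developing or regenerating muscle and of cardiac muscle in the histiocytic sarcoma (circles) and STS 0 (diamonds), beside the range (grey bars) and median (ticks) of the other 21 tumors. MYH3 reads 13.69 in the histiocytic sarcoma and 4.93 in STS 0, and TNNI3 reads 10.81 in STS 0.

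Across the replicated types, limma called genes of these lists, many of which are not confined to muscle. In melanoma the ectoenzyme ART3 was higher by 6.09 (SE 0.46, adjusted p = 6.14e-08), the myogenic and neural crest factor PAX3 by 3.13 (SE 0.40, 8.78e-05), the receptor MET by 2.97 (SE 0.48, 0.000839) and the chaperone CRYAB by 2.39 (SE 0.61, 0.0312). In TCC the homeobox factor SIX4 was higher by 4.12 (SE 0.64, 0.000216) and the junctional protein JPH1 by 2.45 (SE 0.74, 0.0437). In sarcoma FLNC was higher by 1.87 (SE 0.41, 0.0124), COX7A1 by 1.76 (SE 0.40, 0.0149) and FHL1 by 1.56 (SE 0.31, 0.00706). In lymphoma the metabolic and turnover genes CRYAB (-2.85), FBXO32, ART3 (-2.0), the phosphofructokinase PFKM (-1.90) and COX7A1 (-1.63) were lower and FBXO40 was higher (1.35). ART3 (-3.17), COX7A1 (-1.99) and the small heat shock protein HSPB6 (-1.66) were lower in TCC. Of the 26 genes of that list, 1 was called higher and 5 lower in lymphoma, 3 and 0 in melanoma, 1 and 0 in sarcoma, and 0 and 3 in TCC. The 37 structural and calcium genes gave 0 and 2, 0 and 0, 2 and 0, and 1 and 0 in the same order. The 28 genes for developing or regenerating muscle gave 1 and 3, 2 and 1, 0 and 0, and 1 and 2. Over all genes the shares called higher and lower were 4.82% and 7.91% in lymphoma, 1.66% and 1.07% in melanoma, 2.65% and 0.946% in sarcoma, and 4.71% and 2.62% in TCC. Of the head muscle and cardiac genes, ISL1 was lower (-1.42) and HAND2 higher (2.75) in TCC.

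The genes whose pattern over the 23 tumors was most like the mean of the fiber members, members aside, were LMOD3 (Pearson r = 0.903), KLHL41 (0.895), LMOD2 (0.891), APOBEC4 (0.875), TRDN (0.871), MYH3 (0.861), CAVIN4 (0.857), CHM (0.85), CMYA5 (0.84) and UNC45B (0.822). These correlations are descriptions over 23 tumors that share the array platform and its scaling, and all 10 genes had their highest value in the histiocytic sarcoma. Without the histiocytic sarcoma and STS 0 they were -0.249 to 0.616, with 0.616 for CAVIN4, 0.58 for LMOD2, -0.001 for LMOD3 and 0.16 for MYH3.

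Genes of other tissues were measured in the same tumors. In the histiocytic sarcoma the mean difference was 0.49 for 14 smooth muscle genes, of which DES was the 1 past 3, 0.46 for 11 adipocyte, -0.16 for 10 endothelial, -0.14 for 7 Schwann cell and -0.29 for 7 squamous genes. In STS 0 the same lists gave 0.08, 0.01, -0.23, 0.61 and -0.67, and the fibroblast genes 2.19, more than its fiber mean of 1.25. The adipocyte mean of 0.01 there joins LPL and PPARG, which were higher by 3.42 and 3.34, with FABP4, which differed by -3.40. The Schwann cell gene past 3 in STS 0 was PMP22 (3.35), and 4 of the 10 fibroblast genes passed it, FAP (5.20), COL1A2 (3.63), DCN (3.48) and COL3A1 (3.06). Macrophage genes, at 2.53, were high in the same histiocytic sarcoma that led the fiber genes. Lymphocyte genes were at 1.34 in the histiocytic sarcoma, above Lymphoma 1 (1.25), and its fibroblast genes were at 0.8. Whether the fiber RNA in either tumor came from muscle next to the tumor or from the tumor cells was not tested. By the study's methods, biopsies were kept only where a pathologist judged most of the tissue to be tumor, with little necrosis. The pathologist read formalin-fixed pieces, including the equal part of the sample whose other part gave the RNA. The part used for RNA was not itself read, so muscle in it was not assessed directly.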

How the data were processed

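Tumor RNA from 23 dogs was amplified (NuGEN Ovation Pico WTA) and hybridized to Affymetrix Canine Genome 2.0 arrays. The deposited intensity values are MAS5 signals on a linear scale, made by the authors in Expression Console (version not given in the sources used here). Arrays had been scaled to 1 level: leaving out 2% of probesets at either end, the mean was 500.1 on each. Between 19.8% and 27.2% of the probesets of an array lay below a signal of 16. Precision is limited by how many arrays there are.

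Besides 111 controls there are 42924 probesets; 29254 carry a single symbol in the annotation, 439 several and 13231 none here. Probesets with 1 symbol were turned to log2(signal + 16) and averaged per gene, giving 15115 genes with no filter on low signal; symbols were not updated. Types came from the diagnosis labels, with STS and Sarcoma joined. limma 3.58.1 in R 4.3.3 was used (lmFit, contrasts.fit, eBayes with a variance trend; 19 tumors, 15 residual and 5.5 prior degrees of freedom), two-sided, with Benjamini-Hochberg adjustment over all genes within a comparison. Replicates are tumors of different dogs. Single tumors are given as differences from the median of the 23, with a limit of 3 and no test. In tests on simulated data with 200 changed genes among 15115, a log2 change of 2 was recovered for 87%, 79%, 83% and 66% in lymphoma, melanoma, sarcoma and TCC, and 2.60% to 6.19% of calls were false.

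The members and lists were chosen with earlier results of these data known. The genes named with values in every tumor were the 5 factors, a list of 14 fiber genes written down as representative, and every called member; TRIM63 and ATP2A1 are on that list. From the other lists, counts and up to 6 genes each are named, called genes first and then those with the largest differences, together with the 10 genes most like the fiber mean; further genes, such as those of STS 0 and the remaining called genes of these lists, were named after their values were seen. Alternatives were other pseudocounts (1 and 64), quantile normalization, a low-signal filter, 1 probeset per gene, other variance settings, a replicate block, all other tumors as the comparison, adjusted p alone, limits of 2 and 4, and each tumor left out in turn.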

Additional observations from a re-analysis of the deposited data

Results flagged for a closer look

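Within the types of 4 to 7 tumors, 14 of 117 groups of values held a single tumor far from the others of its type. About 1 in 20 such groups is picked by chance. The groups share the same tumors, and the count was not tested against that rate. Among the 4 sarcomas, STS 0 stood apart in the mean of the fiber genes (1.25), in SMPX (7.71) and PYGM (7.01), which were high, and in CASQ1 (4.21), which was low. STS 1 stood apart in the mean of the myogenic factors (0.91), in PAX7 (6.08) and in MYF5 (5.50), all high. Sarcoma 1 was high in ACTN2 (7.48) and TNNC1 (7.01). Among the melanomas, TNNI2 was low in Melanoma 3 (5.12) and MYBPC2 high in Melanoma 4 (7.68). Among the lymphomas, MYL2 was high in Lymphoma 4 (6.01), MYL3 in Lymphoma 0 (6.62) and PAX7 in Lymphoma 3 (4.93).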

How the results depend on the processing

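NEB in melanoma and TNNI2 in TCC were called in all 28 alternative settings, with log2 differences of 3.84 to 5.64 and 3.81 to 5.39. The 8 calls and the melanoma difference of TRIM63 kept their direction in all of these settings. The others held in fewer: TNNI2 in lymphoma in 27, NEB in lymphoma in 26, PYGM in lymphoma in 23, NEB in TCC in 22, TNNI2 in melanoma in 12 and ACTN2 in TCC in 9.

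Counts of called members moved as follows, and the cause was not tested. Against all other tumors of the 23, lymphoma had 0 higher and 0 lower, melanoma 0 lower, and TCC 1 higher and 0 lower. The highest-signal probeset gave 1 lower in lymphoma, 0 lower in melanoma and 1 higher in TCC. A pseudocount of 1 gave 0 lower in melanoma, 1 higher and 0 lower in TCC, and one of 64 gave 0 higher in lymphoma and 1 higher in TCC. Quantile normalization gave 0 lower in melanoma. Leaving out 1 tumor gave 0 to 1 higher in lymphoma, 1 to 2 higher and 0 to 1 lower in melanoma, and 1 to 2 higher and 0 to 1 lower in TCC; the F test passed 2 to 4 members. The numbers in the titles do not pair tumors of different types (correlations of deviations -0.0974 to 0.0717 over 23 pairs of the same number, mean 0.00793 against -0.00167 for different numbers). With them as a replicate block, 0 members were lower in melanoma and 1 higher in TCC.

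The fiber mean of the histiocytic sarcoma was 5.61 and 3.97 with pseudocounts of 1 and 64 and 5.69 with the highest-signal probeset, that of STS 0 was 1.85 with that probeset, and that of TCC was -0.42 with a pseudocount of 1. The mean of the factors was 1.66 in the histiocytic sarcoma and -0.38 in TCC with a pseudocount of 1, and 0.06 in melanoma with 64. STS 0 had 8 and 1 members past limits of 2 and 4, 7 and 1 with pseudocounts of 1 and 64, and 7 with the highest-signal probeset. The most in any of the other 21 tumors was 3 at a limit of 2, 4 with a pseudocount of 1 and 3 with that probeset. The histiocytic sarcoma had 20 to 26 in these settings. Low signal limits the myogenic factors, whose medians were 4.42 to 4.68. The low-signal filter passed 0 of the 5, beside 15 of the 32 fiber genes.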
